A study of Mus musculus with 9 samples.

Results

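Profilins are small proteins best known for binding monomeric actin. Here 4 of their genes, Pfn1, Pfn2, Pfn3 and Pfn4, were followed in the testis of mice with a deletion in the Pfn3 gene. They were taken by gene symbol from a table of 38674 genes, of which 25173 had reads in at least 1 library, and all 4 were found. The libraries were QuantSeq 3′ RNA-seq libraries of testis from male C57BL/6 mice, in which each read marks the 3′ end of a polyadenylated transcript. There were 3 libraries of Pfn3+/+ (WT), 3 of Pfn3+/- (Het) and 3 of Pfn3-/- (KO) mice, each taken here as 1 animal, which the labels do not state outright. Pfn3+/- mice carry a deletion within 1 copy of the gene and Pfn3-/- mice within 2 copies, in every cell of the body. The deletions were made with Cas9 and 2 guide RNAs against the single Pfn3 exon, and the mice were then backcrossed to C57BL/6. By the study's methods its males were sexually mature and a few months old, and no age is given for each of these animals. The study kept several deletion lines, and which of them was sequenced and whether any of these mice were littermates are not given in the sources used here. The values are normalized counts, that is, reads per gene divided by 1 size factor per library. The questions were which profilins the testis expressed and whether Pfn1, Pfn2 or Pfn4 was higher where Pfn3 was deleted.

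Profilins such as Pfn1 and Pfn2 hold actin monomers and speed the exchange of their bound ADP for ATP. They hand the monomers to formins and Ena/VASP proteins, which the profilin contacts through stretches rich in proline. By the study's introduction, Pfn3 changed actin polymerization less than Pfn1 and Pfn2 did, and other roles are proposed for it. Pfn1 is made in nearly all cells, Pfn2 is best known from neurons, and Pfn3 and Pfn4 are known from the testis. In spermatids, actin lies in the acroplaxome, the plate that anchors the growing acrosome to the nucleus, and near the manchette, the microtubule skirt that shapes the sperm head.

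The genes lie on different chromosomes of GRCm38. Pfn1 (ENSMUSG00000018293) is at chr11:70651850-70654644 on the minus strand, and Pfn2 (ENSMUSG00000027805) is at chr3:57841895-57848079 on the minus strand. Pfn3 (ENSMUSG00000044444) is at chr13:55414688-55415232 on the minus strand, and Pfn4 (ENSMUSG00000020639) is at chr12:4769022-4778813 on the plus strand. Pfn3 has 1 exon, against 3 in the Pfn1 and Pfn2 transcripts used here and 4 in that of Pfn4. The coding sequences measure 420, 420, 411 and 387 bases, and their GC content is 56.4%, 51.9%, 64.0% and 46.3% in the order of the gene numbers. Pfn1 and Pfn2 are the most alike, with 61.7% of aligned coding bases identical, and Pfn3 shares 53.0% with Pfn1, 52.0% with Pfn2 and 42.0% with Pfn4.

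The parts of the coding sequence nearest the 3′ end, from coding base 201 on, are shown for Pfn2 and Pfn3, the most abundant members, to compare their coding bases. They come from the GENCODE transcripts of GRCm38 and run 5′ to 3′ on the gene's own strand, across an exon join in Pfn2 (chr3:57843220-57845298) and within 1 exon in Pfn3 (chr13:55414756-55414966). Capitals mark the longest run of identical bases in the coding sequences of both genes, which is 9 bases. The Pfn2 gene runs on to chr3:57841895, beyond its stretch. The stretches therefore do not show whether 3′ reads of the pair can be told apart.
Pfn2: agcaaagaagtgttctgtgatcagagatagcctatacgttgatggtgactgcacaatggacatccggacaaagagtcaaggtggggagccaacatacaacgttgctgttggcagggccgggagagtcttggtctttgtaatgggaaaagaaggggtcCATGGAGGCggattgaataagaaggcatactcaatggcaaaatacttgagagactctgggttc
Pfn3: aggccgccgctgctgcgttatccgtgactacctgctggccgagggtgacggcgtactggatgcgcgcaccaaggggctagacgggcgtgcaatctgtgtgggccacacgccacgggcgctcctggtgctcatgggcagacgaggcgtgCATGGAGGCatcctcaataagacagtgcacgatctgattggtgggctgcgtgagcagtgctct
No stretch of 50 bases of the Pfn1, Pfn2 or Pfn4 transcript occurs in a transcript of another gene. Pfn3 is antisense to Slc34a1, a phosphate transporter gene whose exon covers all 545 bases of it, and Pfn4 overlaps Fam228b on the opposite strand over 246 bases. Whether the counting used strand is not given in the sources used here. Slc34a1 had between 0 and 9.67 normalized counts, and Fam228b between 67.7 and 178.

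Reads on genes ranged from 3375546 to 4287335 per library, and 3 reads, taken as the detection limit, equal 2.58 to 3.71 normalized counts, a limit that covers counting error only. WT replicate 1 stood apart from the other 8 libraries. Of 5759 genes with a median of at least 100 normalized counts in the others, 202 (3.51%) were more than 4 times below the lowest other library in it, against 0.0881% to 1.06% in each other library, and it had the fewest genes with reads (18229, with up to 20566 elsewhere). Results that rest on this animal are given with and without it. The testis was recognised by its own markers: the 4 elongating spermatid genes Tnp1, Tnp2, Prm1 and Prm2 had 12426 to 112269 normalized counts in each library, while of 5 epididymis genes Lcn5, Lcn8 and Adam7 were at 0 in all 9, Crisp1 was at 0 in 6 and at most 7.72, and Rnase10 was at 0 in WT replicate 1 and at 23.3 to 35.0 in the others.

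All 4 profilins were expressed in WT testis, at unequal levels. These are 3′ tag counts, which do not grow with transcript length and were therefore compared between genes without division by length. Pfn3 averaged 449 ± 124 normalized counts (SD, n = 3) and Pfn2 averaged 407 ± 236, so the pair did not differ beyond their spread. Pfn4 averaged 171 ± 61.1, and its range of 105 to 226 overlapped that of Pfn2. Pfn1 averaged 36.5 ± 29.8, and its highest WT value, 57.9, lay below the lowest of Pfn4. Of 22526 genes with reads in WT, 91.7% had a lower mean than Pfn3, 90.9% a lower mean than Pfn2, 82.1% a lower mean than Pfn4 and 56.9% a lower mean than Pfn1. Of the summed profilin counts in WT, Pfn3 made up 45.0% ± 22.5, Pfn2 36.1% ± 17.3, Pfn4 15.7% ± 3.13 and Pfn1 3.13% ± 2.49 (SD, n = 3).

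The order of Pfn2 and Pfn3 turned on WT replicate 1. In that animal Pfn3 made up 70.9% and Pfn2 16.2% of the profilin counts, while in WT replicates 2 and 3 Pfn2 made up 46.3% and 45.9% and Pfn3 33.0% and 31.1%. Without WT replicate 1 the mean share was 46.1% for Pfn2 and 32.1% for Pfn3. In each WT animal Pfn4 came after Pfn2 and Pfn3, and Pfn1 came last. In the 6 animals with a deleted allele Pfn2 was the most abundant profilin, with 49.6% to 65.7% of the profilin counts.

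**Figure D1:**
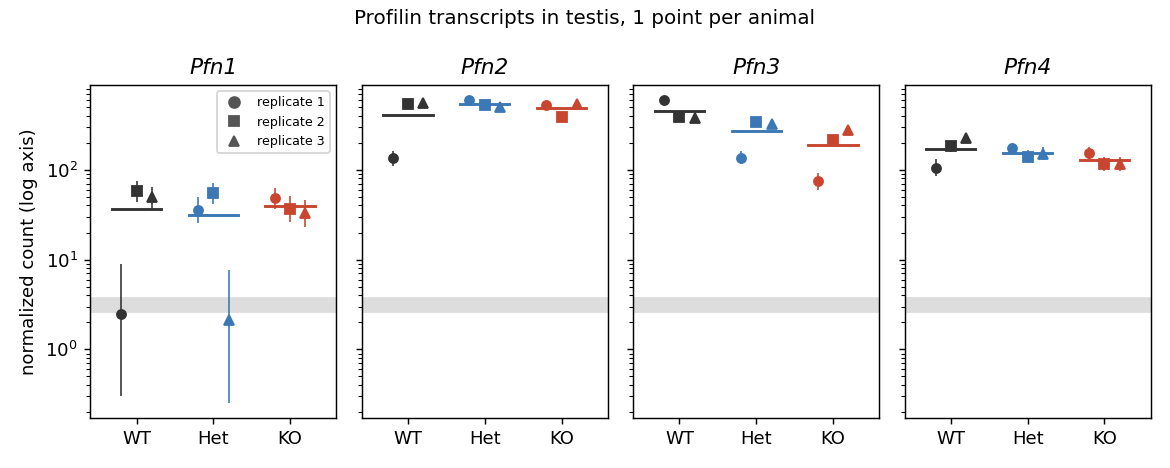
Normalized counts of the 4 profilins on a log axis, 1 point per animal (replicate number by shape) with its 95% Poisson interval, horizontal bars at the mean of 3 animals and a grey band at the detection limit of 2.58 to 3.71. Pfn1 is under the limit in WT replicate 1 and Het replicate 3, Pfn2 is low in WT replicate 1 alone, and the Pfn3 values of KO animals (74.7 to 279) lie below those of WT animals (373 to 592).

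Pfn3, the gene that carries the deletion, gave reads in every animal. It had 592, 383 and 373 normalized counts in WT, 136, 339 and 326 in Het and 74.7, 215 and 279 in KO replicates 1, 2 and 3. All KO and all Het animals were below all WT animals, while Het and KO overlapped. Of all genes tested, 10.5% had every KO below every WT animal and 6.49% every Het below every WT animal. In limma fits with Benjamini-Hochberg adjustment, the log2 fold change of log2(normalized count + 1) was -1.41 in KO against WT (standard error 0.52, 95% interval -2.66 to -0.15, adjusted p = 0.610), a level 0.377 times that of WT. Het stood at -0.83 against WT (standard error 0.42, limma adjusted p = 0.779), and KO at -0.58 against Het (standard error 0.59, limma adjusted p = 0.973). The KO against WT value ran from -1.78 without KO replicate 3 to -0.84 without KO replicate 1. Without WT replicate 1, which held the most Pfn3, it was -1.19 (interval -2.65 to 0.27), so the interval then crossed 0. It also crossed 0 without WT replicate 2 or without WT replicate 3. Het against WT was -0.61 (interval -1.76 to 0.54) without WT replicate 1. The deletions lie in the coding part, and where the Pfn3 reads fall relative to them was not examined. Pfn3 reads in KO animals therefore do not test the deletion. By the study's account the deletions remove part of the coding sequence and shift its reading frame. It reported the loss of Pfn3 in its lines by qRT-PCR, western blot and immunostaining of testis.

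Summed spermatid markers were also lower in KO than in WT, and their part in the Pfn3 difference was not tested. The summed normalized counts of the 5 round spermatid markers ran from 7254 to 9948 in WT, 5966 to 7382 in Het and 3611 to 6000 in KO, and those of the 4 elongating spermatid markers from 233289 to 249362, 179063 to 214894 and 123388 to 199672. None of the 9 marker genes was at 0 in any animal. Single markers differed. Spaca1 had 331, 538 and 707 normalized counts in WT and 665, 384 and 643 in KO. Acrv1 and Prm1 also overlapped between WT and KO. In the other markers every KO animal was below every WT animal, as in 10.5% of all genes. The study compared markers of several cell types, transition proteins and protamines among them, and reported no significant difference. The 5 spermatocyte markers summed to 4491 to 6261 in WT, 4609 to 7499 in Het and 7224 to 7994 in KO. Of these, Piwil1 and Hormad1 overlapped between WT and KO. In Sycp1, Sycp2 and Sycp3 every KO animal was above every WT animal, as in 9.41% of all genes. In whole testis, fewer spermatids and less RNA per spermatid cannot be told apart. The 3 animals with the least Pfn3 were KO replicate 1 (74.7 normalized counts), Het replicate 1 (136) and KO replicate 2 (215). In the mean log2 level of the elongating spermatid markers they were also the 3 lowest, at 15.27, 15.13 and 14.64. KO replicate 3 came close, at 15.33. In the round spermatid markers the 3 lowest were instead KO replicates 2 (9.41), 1 (10.05) and 3 (10.12), just under Het replicate 1 (10.13).

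**Figure D2:**
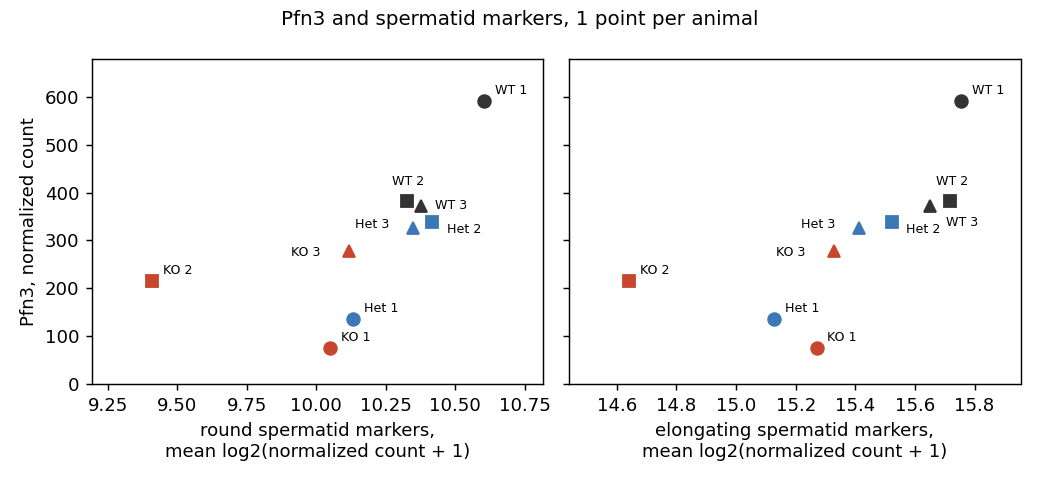
Pfn3 in normalized counts against the mean log2(normalized count + 1) of 5 round spermatid markers (left) and 4 elongating spermatid markers (right), 1 point per animal, with WT in black, Het in blue and KO in red. WT animals have the highest Pfn3 (373 to 592), KO replicate 2 has the lowest marker level (9.41 and 14.6) with 215 normalized counts of Pfn3, and KO replicate 1 has the lowest Pfn3 (74.7).

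Pfn2, the other abundant profilin, was not higher in KO than in WT beyond the spread between animals. It had 135, 537 and 549 normalized counts in WT, 596, 524 and 501 in Het and 529, 387 and 542 in KO. Apart from WT replicate 1 and KO replicate 2, the animals lay between 501 and 596, and the genotypes overlapped. Limma gave a log2 fold change of 0.49 in KO against WT (standard error 0.57, 95% interval -0.89 to 1.87, adjusted p = 0.734), and in Het against WT 0.66 (standard error 0.56, adjusted p = 0.779). Both positive values rested on WT replicate 1: without it they were -0.18 (interval -0.69 to 0.33) and -0.01 (interval -0.40 to 0.38). In KO against Het, which does not use that animal, the value was -0.17 (interval -0.61 to 0.28). With all animals the KO against WT interval reaches a 3.66-fold increase, so such an increase could not be told from none at this spread.

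Pfn1 was the scarcest profilin and the least precisely measured. It had 2.48, 57.9 and 49.2 normalized counts in WT, 35.9, 54.9 and 2.12 in Het and 48.1, 36.8 and 33.1 in KO. WT replicate 1 and Het replicate 3 each held 2 reads, which is under the detection limit, while the other 7 libraries held 37 to 60 reads. Its coefficient of variation over the 9 animals was 58.2%, and the median of 14865 genes was 31.9%. The relative counting error of each library averaged 27.1%. The libraries with 2 reads raise that average, so it is no baseline for the spread. Limma gave KO against WT a log2 fold change of 0.87 (standard error 1.09, 95% interval -1.77 to 3.52, adjusted p = 0.751), which became -0.45 (interval -1.08 to 0.18) without WT replicate 1. KO against Het gave 1.10 (standard error 1.07, limma adjusted p = 0.973), which turned to -0.19 when Het replicate 3 was left out. With 2 reads in these animals the fitted value depends on the pseudocount and the test, and edgeR gave 0.09 in KO against WT.

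Of the nearest neighbours of Pfn1, Rnf167, a ubiquitin ligase gene 429 bases away on the plus strand, was itself low in most libraries. It had 2.48, 18.3 and 16.4 normalized counts in WT, 5.67, 5.59 and 8.47 in Het and 22.3, 224 and 11.6 in KO replicates 1, 2 and 3. Gm12319, 97 bases away on the minus strand, had 300 normalized counts in WT replicate 1, 146 in Het replicate 3 and 106 to 231 in the other libraries. Of 4 Sertoli cell markers, Aard had 176 normalized counts in WT replicate 1 and 638 to 893 in the other libraries. Amhr2 had 6.19 in WT replicate 1 and 10.6 in Het replicate 3, but also 3.78 to 15.5 in 3 libraries with 37 or 38 reads of Pfn1, and 520 to 624 in the remaining 4. Defb36 was highest in WT replicate 1 (676) and at its median in Het replicate 3 (375), and Cst12 was at 779 and 610, within its range of 602 to 996. The part of these cells in the Pfn1 values was not tested.

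Pfn4, the second testis profilin, had the smallest coefficient of variation of the 4 and no higher values in KO than in WT beyond the spread between animals. It had 105, 182 and 226 normalized counts in WT, 173, 140 and 151 in Het and 153, 116 and 116 in KO. KO overlapped with Het, and both overlapped with WT through WT replicate 1, the lowest animal. Its coefficient of variation over the 9 animals was 25.3%, against 29.4% for Pfn2 and 50.4% for Pfn3. The limma log2 fold change for KO against WT came to -0.36 (standard error 0.33, 95% interval -1.15 to 0.44, adjusted p = 0.686), so the interval ends at a 1.36-fold increase. Without WT replicate 1 it was -0.67 (interval -1.22 to -0.12), with an unadjusted p of 0.025 and an adjusted p of 0.534. In Het against WT the value was -0.08 (standard error 0.32, limma adjusted p = 0.949), and in KO against Het -0.27 (standard error 0.19, limma adjusted p = 0.973).

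**Figure D3:**
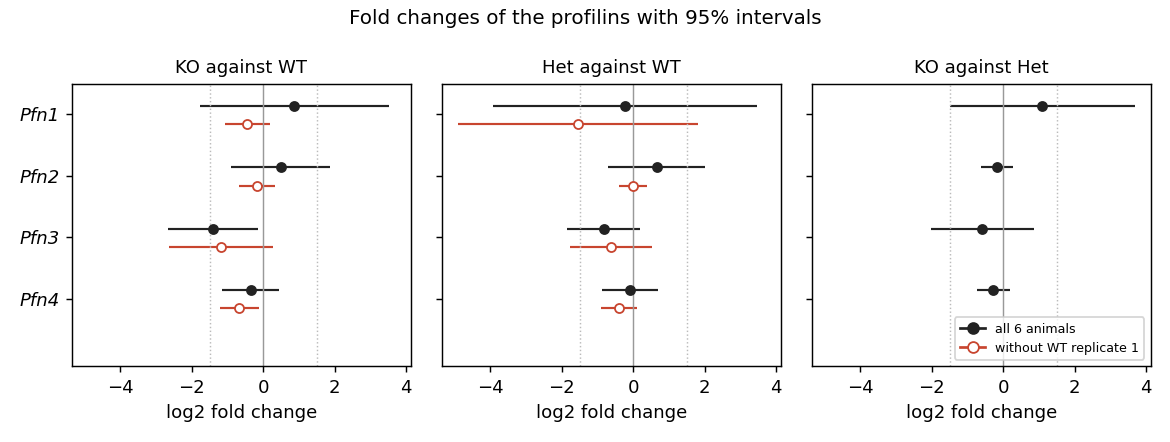
Limma log2 fold change of each profilin with its 95% interval in 3 comparisons, for all 6 animals (filled) and without WT replicate 1 (open), with dotted lines at 1.5 and -1.5. Of the 12 intervals over all animals, that of Pfn3 in KO against WT is the one that does not cross 0, and it does cross 0 without WT replicate 1. The values of Pfn1 and Pfn2 in KO against WT change side when that animal is left out.

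No profilin passed the cutoffs, an adjusted p below 0.05 with a log2 fold change beyond 1.5, in any of the 3 comparisons. In KO against WT 5 of 14223 genes did (0.0352%), in Het against WT 0 of 14216 (0%, with 475 genes at an unadjusted limma p under 0.05 and 33 called by DESeq2), and in KO against Het 8 of 14343 (0.0558%). Leaving out WT replicate 1 gave 49 calls in KO against WT, leaving out KO replicate 1 gave 11, and leaving out any other animal gave 0 or 1. In KO against Het, 39 genes were called when Het replicate 2 was left out and 0 or 1 when any other animal was. Unless DESeq2 is named, these are limma counts. The study used DESeq2 at the same cutoffs and reported more genes in KO against WT than limma called here. DESeq2 called 104 here in KO against WT. Of the 4 profilins, 1 had an unadjusted limma p under 0.05 in KO against WT, Pfn3 (0.034), where 8.07% of all genes did. Without WT replicate 1 the limma p of Pfn3 was 0.091. In Het against WT (3.34%) and KO against Het (3.56%) 0 of the 4 had an unadjusted p under 0.05. Positive values were given by 2 of the 4 in KO against WT (51.4% of all genes), by Pfn2 alone in Het against WT (50.5%) and by Pfn1 alone in KO against Het (49.7%). No profilin had every KO animal above every WT animal (9.41%) or every Het animal above every WT animal (6.76%), and none separated KO from Het, below (4.9%) or above (5.12%). The comparisons share animals: WT enters 2 of them, as do Het and KO.

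The sum of the 4 genes had its lowest mean in KO and its highest in WT, with overlap, since it was 834 in WT replicate 1 and 970 in KO replicate 3. It is given as a description, with no test. The sum averaged 1064 ± 200 normalized counts for WT (SD, n = 3), or 1179 if replicate 1 is left out, 993 ± 59.5 for Het and 843 ± 113 for KO. The sum of Pfn1, Pfn2 and Pfn4 was 615 ± 323 in WT, 726 ± 75.7 in Het and 654 ± 100.4 in KO. By animal it was 243, 778 and 825 in WT, 805, 719 and 654 in Het and 730, 540 and 691 in KO. Without WT replicate 1 its WT mean was 801, above all 3 KO animals, so that the direction between WT and KO rests on that animal. The share of Pfn2 was 54.7% ± 7.56 in Het and 57.6% ± 7.39 in KO, and that of Pfn3 26.6% ± 10.5 and 22.2% ± 11.2. Pfn4 kept between 12.0% and 19.0% of the profilin counts in all 9 animals.

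**Figure D4:**
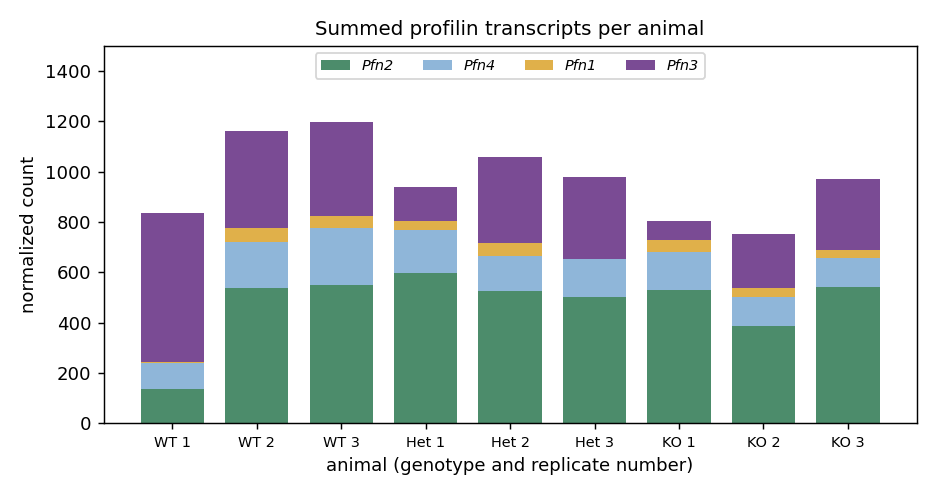
Normalized counts of Pfn2, Pfn4, Pfn1 and Pfn3 stacked for each of the 9 animals, on an axis from 0. Pfn3, the top segment, is widest in WT replicate 1 (592) and narrowest in KO replicate 1 (74.7), and the part below it, the other 3 profilins, measures 243 in WT replicate 1 and 540 to 825 in the other 8 animals.

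Levels of the 4 profilins were also set against each other across animals. Over the 9 animals, which share the 3 genotypes and the gaps of WT replicate 1, Pearson's r of log2(normalized count + 1) was 0.64 between Pfn1 and Pfn2, 0.62 between Pfn2 and Pfn4, 0.42 between Pfn1 and Pfn4, -0.14 between Pfn3 and Pfn4, -0.42 between Pfn1 and Pfn3 and -0.49 between Pfn2 and Pfn3. These are descriptions, since WT replicate 1 holds the highest Pfn3, the lowest Pfn2 and the lowest Pfn4 of all animals.

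The genes with a pattern most like each profilin were taken by the same r among 14865 genes. For Pfn3 they were Lrrc51 (r = 0.98), a gene for a leucine-rich repeat protein, Clasrp (r = 0.97), which encodes a splicing regulator, and Dnmt3l (r = 0.95), which encodes a cofactor of DNA methyltransferases. Lrrc51 had 2607, 1081 and 1012 normalized counts in WT, 321, 926 and 724 in Het and 165, 487 and 650 in KO, and placed the 9 animals in the same order as Pfn3 (Spearman's rho 1.0). Without Het replicate 1 and KO replicate 1, the animals farthest from the Pfn3 median, r was 0.98, 0.95 and 0.83 over 7 animals. For Pfn4 they were Emx2, a homeobox gene (r = 0.94), Cpne5 (r = 0.91) and Cldn34c3 (r = 0.89), with 0.93, 0.88 and 0.85 over the 7 animals left without WT replicates 1 and 3. For Pfn1 they were Slc26a6, an anion exchanger gene, Sigirr and Gm10505 (r = 0.99 each), all at 0 in WT replicate 1 and Het replicate 3, and r was 0.80, 0.48 and 0.66 without those libraries. For Pfn2 they were 4930527E20Rik, BC029214 and AC156568.3 (r = 0.99 each), all at 0 in WT replicate 1, with 0.62, 0.28 and 0.80 without WT replicate 1 and KO replicate 2. The r of 0.99 of these 6 genes thus rested on the libraries left out.

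The proteins that profilins serve were covered by a list of 47 genes of actin, its relatives, nucleators and monomer-binding proteins. It also holds SRF with its coactivators, and Gphn and Trim27 as other ligands. All were present in the table, and 41 passed the filter on low values in KO against WT. Of these 41, 1 passed the cutoffs, Trim27, which rose, and 21 had a positive and 20 a negative value. The study had already reported Trim27 and Cfl1 as raised in these libraries, and also by qRT-PCR on testis RNA. Calls of these genes are therefore no independent evidence and cannot be weighed against the share of all genes, 0.0352%. With scaling by the total reads of each library in place of the size factors, which moves the median of all genes by 0.22, the split was 27 to 14, and without WT replicate 1 it was 17 to 24, with Trim27 and Cfl1 past the cutoffs. The median log2 fold change was 0.04, beside 0.02 over all genes. In 8 of the 41 every KO was below every WT animal and in 3 above, where the shares of all genes were 10.5% and 9.41%. At an unadjusted limma p under 0.05 there were 6 of the 41, beside 8.07% of all genes. In Het against WT 0 of 42 tested members passed the cutoffs, with 1 at an unadjusted limma p under 0.05 (3.34% of all genes) and 0 called by DESeq2. In KO against Het 0 of 42 passed, with 4 at an unadjusted limma p under 0.05 (3.56% of all genes) and 1, Cfl1, called by DESeq2, which called 46 of 24352 genes.

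Among the monomers themselves, Actb, the beta-actin gene, had 2464, 2096 and 2202 normalized counts in WT and 1535, 2094 and 1634 in KO, with a log2 fold change of -0.37 (limma adjusted p = 0.615). KO animals lay below WT animals, by little in KO replicate 2. Actg1, the gamma-actin gene, varied widely within WT and within Het, with 612, 1926 and 54.1 in WT, 136, 1881 and 63.5 in Het and 48.1, 87.1 and 67.0 in KO. Its log2 fold change of -2.60 had a limma adjusted p of 0.614, and DESeq2 called it at an adjusted p of 0.034.

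The 6 actin-related genes of spermatids gave 5 negative values and 1 positive one in KO against WT (6 and 0 if WT replicate 1 is left out), where 51.4% of all genes were positive. Their median was -0.41, beside 0.02 over all genes, and 0 passed the cutoffs. In limma 2 of the 6 had an unadjusted p under 0.05, where 8.07% of all genes did, and DESeq2 called none. Actrt3, whose protein is known to bind Pfn3, had 513, 415 and 418 normalized counts in WT, 321, 325 and 395 in Het and 339, 264 and 357 in KO (log2 fold change -0.49, limma adjusted p = 0.610). Its KO and Het animals all lay below its WT animals. Actl7a, a gene needed for the acrosome to attach, had 1295, 840 and 799 in WT and 636, 457 and 624 in KO (-0.75, limma adjusted p = 0.610). Actl9, another such gene, had 2009, 1402 and 1162 in WT and 971, 638 and 957 in KO (-0.82, limma adjusted p = 0.610). The summed spermatid markers were lower in the same KO animals, and their part in these values was not tested.

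Of the 14 formin genes, which encode nucleators that take up profilin-actin, 10 were tested, with 5 positive and 5 negative values (4 and 6 if WT replicate 1 is left out) and 0 past the cutoffs. Of these 10, 2 had an unadjusted limma p under 0.05, where 8.07% of all genes did, and DESeq2 called none. Fhod1 had 103, 87.8 and 113 normalized counts in WT and 60.1, 47.4 and 59.0 in KO, without overlap (log2 fold change -0.85, limma adjusted p = 0.610). Diaph3 had 557, 274 and 300 in WT and 201, 92.9 and 238 in KO (-1.12, limma adjusted p = 0.610), and is named after its values were seen. Diaph1 had 80.5, 134 and 155 in WT and 118, 157 and 128 in KO (0.16, limma adjusted p = 0.835), and -0.12 without WT replicate 1. Of the 3 Ena/VASP genes, Vasp, whose protein recruits profilin-actin to growing filaments, had 713, 512 and 430 in WT and 389, 254 and 425 in KO (-0.63, limma adjusted p = 0.613). The KO animals were below the WT animals, by little in KO replicate 3.

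Among the 9 genes for monomer binding and recycling, 8 had positive values in KO against WT and 1 a negative one, with a median of 0.62. Over all genes 51.4% were positive, with a median of 0.02. Without WT replicate 1 the 9 genes gave 6 and 3, with a median of 0.24. In limma 0 passed the cutoffs, and 1 had an unadjusted p under 0.05 (8.07% of all genes). WT replicate 1 was the lowest library, apart from the other 8, for 4 of them. It had 141 normalized counts of Tmsb4x, a thymosin that sequesters actin monomers, against 919 to 1609 in the others, and 1234 of Tmsb10, another thymosin, against 2200 to 4125. It had 23.5 of Cap2 against 129 to 227, and 0 of Twf2 against 30.2 to 55.1. Cap2, at 0.62 in KO against WT, is the gene at the median. These 4 genes are named after their values were seen. Cap1, which recycles actin monomers, had 24.8, 28.9 and 39.6 in WT and 27.5, 52.2 and 193 in KO (log2 fold change 1.08, limma adjusted p = 0.643). Cfl1, the non-muscle cofilin gene, had 19.8, 13.5 and 12.6 in WT, 9.45, 27.9 and 22.2 in Het and 137, 90.0 and 160 in KO (2.98, limma adjusted p = 0.099). It passed the cutoffs without WT replicate 1 (3.17, limma adjusted p = 0.030) and with DESeq2, and missed them with each other animal left out (limma adjusted p = 0.175 to 0.413). The study had already reported Cfl1 as raised in these libraries, so its rise is no independent evidence. Apart from the libraries, the study reported Cfl1 as raised in KO by qRT-PCR, and its protein as raised on western blots, already in Het testis.

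The 3 genes of SRF and its coactivators, which respond to the pool of actin monomers, lay between -0.05 and 0.13 in KO against WT, and the 6 tested genes of the WASP and WAVE group had a median of -0.07. In both groups 0 members passed the cutoffs or had an unadjusted limma p under 0.05, and DESeq2 called none. Trim27, a RING-finger ubiquitin ligase gene that the study singled out in these libraries, so that its rise is no independent evidence, had 47.0, 25.1 and 30.9 normalized counts in WT, 64.2, 1014 and 102 in Het and 825, 764 and 879 in KO. KO exceeded WT by 4.59 on the log2 scale (standard error 0.27, limma adjusted p = 0.014). When single animals were left out, the log2 fold change stayed between 4.39 and 4.83. The limma adjusted p was 0.0029 if WT replicate 1 was left out and 0.044 if KO replicate 1 was, and missed the cutoff if WT replicate 2 (0.117), WT replicate 3 (0.090), KO replicate 2 (0.103) or KO replicate 3 (0.181) was. With all 9 animals in 1 fit the limma adjusted p was 0.522.

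**Figure D5:**
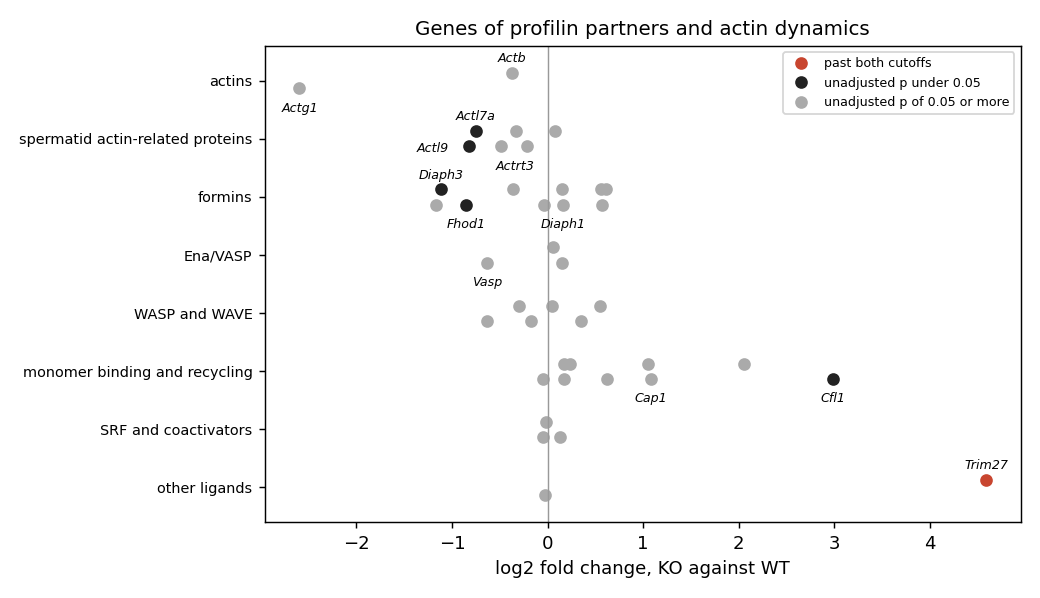
Limma log2 fold change in KO against WT of the 41 tested genes of profilin partners and actin dynamics, by subgroup, with Trim27 (4.59) past both cutoffs in red and genes at an unadjusted p under 0.05 in black. Points lie on both sides of 0, with 21 positive and 20 negative values, and 5 of the 6 actin-related genes of spermatids are negative.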

How the data were processed

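RNA of 9 testis samples, 3 per genotype, was made into QuantSeq 3′ libraries. The authors trimmed reads with Trim Galore 0.4.5, aligned them with HISAT2 2.1 to GRCm38, counted genes with StringTie 1.3.3, removed pseudogenes and deposited signal values, that is, reads per gene scaled by a DESeq2 size factor for each sample. In each sample 100% of nonzero values were whole multiples of its smallest value (tolerance 1e-06), so whole counts were recovered, which are called reads here. The study made its counts per gene with a script of the StringTie package. Whole values do not by themselves show that each count is an observed read. The Poisson intervals and the detection limit treat the counts as observed reads. Groups and replicate numbers came from the sample titles.

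Values were compared with limma 3.58.1 (eBayes with trend) in R 4.3.3 on log2(value + 1), which understates changes of low genes, over genes with at least 10 in 3 of the 6 samples compared. Benjamini-Hochberg adjustment ran over all genes. All 4 profilins passed the filter. The cutoffs are the study's, and only the 2 genotypes compared entered a fit. P-values measure the spread between these samples. Functions were tested on simulated data.

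Alternatives were DESeq2 1.42.0 and edgeR 4.0.16 on recovered reads, pseudocounts of 0.1, 0.5 and 5, other filters, TMM factors, total reads per library in place of size factors, all 9 samples in 1 fit, a replicate block, no fold change cutoff and each replicate left out. For the partner genes they were chosen after seeing the data.

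The members and gene lists were chosen with earlier results of these data known. Named were the profilins, genes overlapping them, 3 genes most like each, Actb, Actg1, Actrt3, Cap1, Vasp, Diaph1 and Trim27, partner genes past the cutoffs and the 5 with the lowest unadjusted p. The markers of 11 cell types reached a mean of 10 normalized counts over the 9 samples in 5 of 5 Leydig cell, 4 of 4 Sertoli cell, 2 of 4 spermatogonia, 5 of 5 spermatocyte, 5 of 5 round spermatid, 4 of 4 elongating spermatid, 4 of 4 myoid, 3 of 5 macrophage, 1 of 3 endothelium, 5 of 5 erythrocyte and 1 of 5 epididymis genes. Coding sequences were aligned with Biopython 1.88 from the GENCODE transcripts. The sequence of 1 further member is not reported here.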

Additional observations from a re-analysis of the deposited data

How the results depend on the processing

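Of 204 recomputed profilin fold changes in 12 comparisons, 0 passed the cutoffs and 9 changed direction, 8 of them with a replicate left out. The ninth was Pfn4 in Het against WT, 0.072 with scaling by total reads per library, which moves the median of all genes by 0.22 in KO against WT and 0.16 in Het against WT. With each replicate left out, Pfn1 ran from -0.45 to 1.59 in KO against WT, from -1.55 to 1.06 in Het against WT and from -0.19 to 1.89 in KO against Het. Pfn2 ran from -0.18 to 0.83 in KO against WT and from -0.012 to 0.997 in Het against WT, and Pfn4 from -0.40 to 0.15 in Het against WT. Pfn3 and the other comparisons of Pfn2 and Pfn4 kept their direction under each alternative.

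Genes past the cutoffs ran from 0 to 49 in KO against WT, 0 to 3 in Het against WT and 0 to 39 in KO against Het (39 without Het replicate 2) with a replicate left out. Against 5 in KO against WT, DESeq2 called 104, a filter of at least 1 in 3 samples 10 and all 9 samples in 1 fit 3. Against 0 in Het against WT, DESeq2 called 33, a pseudocount of 5 gave 2, TMM factors 1, and no filter, the filter of 1 or all 9 samples 3 each. Against 8 in KO against Het, edgeR called 5, DESeq2 46 and all 9 samples in 1 fit 4. The cause was not tested. Diaph1 in KO against WT turned to -0.12 without WT replicate 1 and ran up to 0.35 without the others, and its alternatives were added after seeing the data.

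With the replicate block 0 genes passed in each comparison, with 794 genes at an unadjusted p under 0.05 for KO against WT, 322 for Het against WT, and 403 for KO against Het. The numbers were not shown to pair the samples: deviations of same-numbered samples correlated at -0.14 to 0.21, and samples did not always correlate best with their own number. Of Pfn1, 2 libraries held 2 reads each, and the cause was not tested.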

Other observations

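One more profilin gene, annotated as Pfn5 in GENCODE and listed in the table as Gm45800 (ENSMUSG00000109858, chrX:95558104-95558803 of GRCm38, plus strand, 1 exon), was outside the search by symbol and was chosen after its values were seen. It had 173, 210 and 190 normalized counts in WT, 132, 162 and 167 in Het and 180, 105 and 176 in KO, a level near that of Pfn4. WT replicate 1, the library with the gaps in Pfn1 and Pfn2, lay within the range of the other animals here. Its coefficient of variation over the 9 animals was 18.7%, below those of Pfn1 to Pfn4. The limma log2 fold change was -0.35 in KO against WT (standard error 0.27, adjusted p = 0.657) and -0.32 in Het against WT (standard error 0.20, adjusted p = 0.779), with overlap between WT and KO, while every Het animal was below every WT animal, as in 6.49% of all genes.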
